A study of Mus musculus with 24 samples.

Results

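The genes described are 10 mouse genes of the NRF2 antioxidant pathway, namely Nfe2l2, Keap1, Slc7a11, Gclc, Gclm, Gsr, Srxn1, Prdx1, Txnrd1 and Nqo1. They were chosen by name, with earlier results of these data known, from the 54658 gene symbols of the deposited count tables. Each symbol matched 1 row. RNA was sequenced in 24 samples from male C57BL/6 mice of 7 to 12 weeks, all with peritonitis and all injected with vehicle (saline, 0.9% NaCl) or with β-NMN, the NAD+ precursor nicotinamide mononucleotide, at 185 mg/kg/day. The last dose was given 24 h before the animals were killed. In the TGC model, sterile peritonitis was raised with 1 mL of Brewer thioglycollate medium, and cells of the peritoneal lavage from 6 vehicle and 6 β-NMN mice were incubated with E. coli for 6 h before RNA was taken. In the CLP model (cecal ligation and puncture, a polymicrobial sepsis), each mouse gave a heart and a lung 24 h after surgery, with 3 mice on vehicle and 3 on β-NMN. By the study's methods, β-NMN was injected into the peritoneal cavity. TGC mice were dosed daily for 3 days, with the first dose given together with thioglycollate. The CLP organs followed 1 dose, given right after surgery. The question was how treatment of the animal changed the level of each gene in each tissue. Mice without peritonitis and cells without bacteria were not analysed here, so no value is a resting level.

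NRF2, the product of Nfe2l2, is a transcription factor that turns on genes for glutathione synthesis, thioredoxin recycling and detoxification when electrophiles or oxidants reach the cell. KEAP1 holds NRF2 in the cytoplasm and presents it for degradation until its reactive cysteines are modified. In macrophages the pathway is known for limiting oxidant damage and for restraining inflammatory gene expression. NRF2 binds the antioxidant response element together with a small MAF protein, and the core of that element is written here as TGACNNNGC, where N is any base.

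The core was searched on both strands in the RefSeq promoter windows of GRCm38.p6, each reaching from 250 bases before to 50 bases after a gene's start. Of the 10 genes, 8 had windows in that table and Gclc and Gsr had none. A core was found for Nfe2l2, Srxn1, Gclm, Prdx1 and Txnrd1, in 5 of the 10 windows these 8 genes have. Of all 32851 windows in the table, 12.4% held the core. The stretches below are shown because they carry the same 9-base pattern beside genes that fell (Nfe2l2, Gclm and Txnrd1) and beside one that rose (Prdx1) in β-NMN peritoneal cells. The capitals mark the core, and each stretch is 100 bases written in the direction of its gene. The Nfe2l2 stretch is chr2:75704814-75704913 on the minus strand, and an exon of the neighbouring gene E030042O20Rik overlaps it. The Gclm stretch, chr3:122245378-122245477, and the Prdx1 stretch, chr4:116685421-116685520, are on the plus strand between annotated genes. The Txnrd1 stretch, chr10:82859069-82859168 on the plus strand, lies in an intron of the longer Txnrd1 transcripts and before the second of its 3 listed starts.
Nfe2l2: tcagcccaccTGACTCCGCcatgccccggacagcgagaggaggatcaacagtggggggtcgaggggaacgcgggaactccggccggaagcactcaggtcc
Gclm: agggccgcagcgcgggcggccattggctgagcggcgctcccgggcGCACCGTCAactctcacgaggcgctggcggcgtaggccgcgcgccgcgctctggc
Prdx1: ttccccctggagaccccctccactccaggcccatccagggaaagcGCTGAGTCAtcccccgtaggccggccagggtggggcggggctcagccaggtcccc
Txnrd1: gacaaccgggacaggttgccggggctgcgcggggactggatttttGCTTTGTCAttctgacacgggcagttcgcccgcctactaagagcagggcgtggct
In Nfe2l2 the core reads along the gene, and in the other 3 stretches it lies on the opposite strand, so that it appears as its reverse complement. The windows of Slc7a11, Nqo1 and Keap1 did not hold these letters, which says nothing of elements further away.

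Total counts ranged from 31126823 to 112456050 in peritoneal cells, from 27319513 to 68523239 in hearts and from 8915366 to 28356786 in lungs. Levels are CPM, counts scaled to the size of each library with the TMM factor (trimmed mean of M-values), and each tissue was tested alone with edgeR's quasi-likelihood F-test. A gene is called where its Benjamini-Hochberg adjusted p is below 0.05, and fold changes are β-NMN over vehicle. Marker levels matched the labelled tissues: the summed CPM of 6 macrophage markers was 5366 to 11890 in peritoneal cells, that of 5 cardiomyocyte markers was 29611 to 52362 in hearts, and that of 4 alveolar type 2 markers was 21429 to 40507 in lungs. The mouse labelled vehicle replicate 2 stood apart in both organs. The SD of its log2 difference from the other libraries was 0.99 in heart (0.39 to 0.58 in the other 5) and 1.57 in lung (0.45 to 0.60), and its lung had the lowest total count. Fold changes in the organs are therefore given both with and without this mouse where it shifted them most.

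In peritoneal cells, 8 of the 10 genes fell with β-NMN and 2 rose, all of them past the threshold of edgeR's quasi-likelihood test. The falls reached 37.0-fold for Slc7a11 and 8.64-fold for Nqo1, and the rises, of Prdx1 and Keap1, were 1.61-fold and 1.51-fold. Much of the transcriptome moved in this comparison: of 14985 genes tested, 51.6% were called, 27.9% lower and 23.7% higher. The median log2 fold change of the 10 genes was -1.46, against -0.02 over all genes tested. The 10 were chosen with earlier results of these data known, so their contrasts with all genes are descriptive and do not test the set. For each of the 10, the 6 vehicle and the 6 β-NMN values did not overlap, which held for 26.6% of all genes tested (14% lower and 12.6% higher). An exact two-sided permutation test of mean log2 CPM gave 0.00216 for each gene, the smallest p that 6 against 6 allows. Any gene whose groups do not overlap gets this p, so it adds nothing to the lack of overlap.

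**Figure D1:**
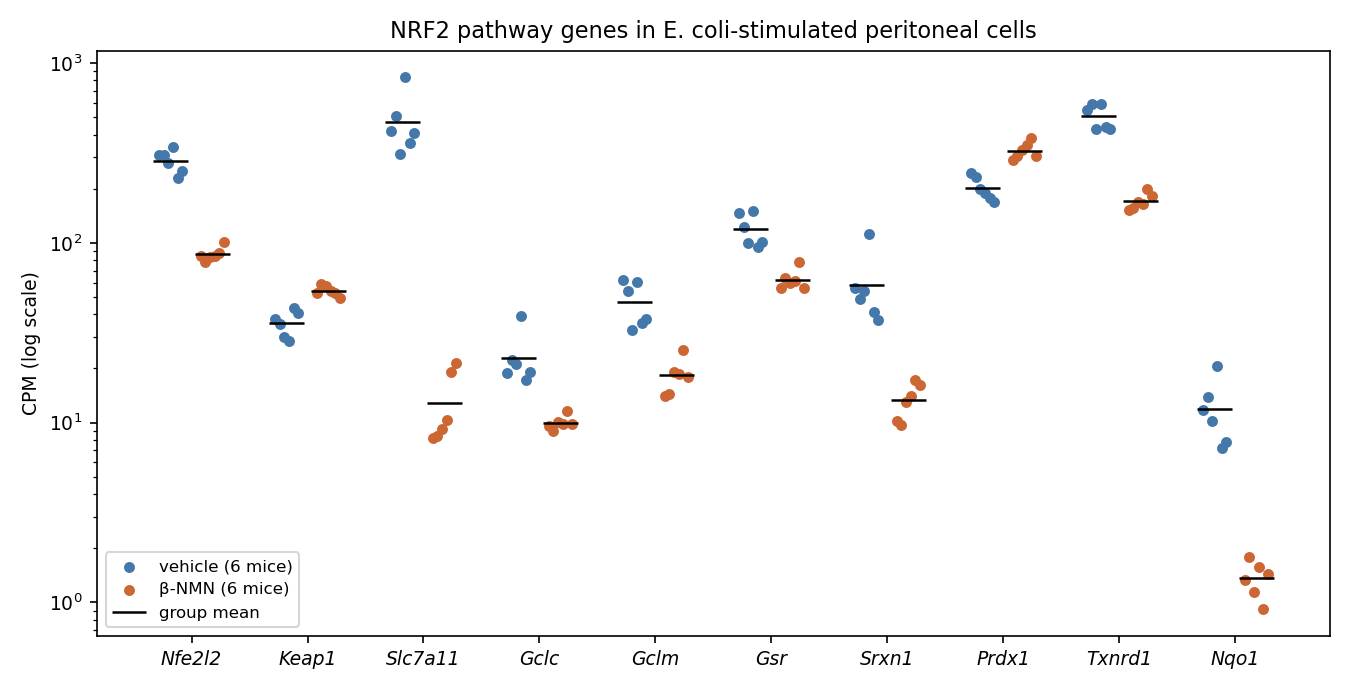
CPM on a log axis for each of the 10 genes in peritoneal cells, with 1 point per mouse (vehicle in blue, β-NMN in orange, 6 each) and a line at the group mean. In all 10 genes the orange and blue points do not overlap, and only Prdx1 and Keap1 are higher with β-NMN.

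The regulators moved in opposite directions. Nfe2l2 (chr2:75675513-75704641, minus strand) had a lowest, median and highest level of 230, 293 and 341 CPM in vehicle cells and of 78.1, 84.5 and 101 CPM in β-NMN cells. Every vehicle library was at least 2.29 times as high as the highest β-NMN library. The log2 fold change was -1.72 ± 0.10 (SE, n = 6 and 6, edgeR adjusted p = 2.07e-08), which placed the gene 34th of 14985 by p. Keap1 (chr9:21229730-21239361, minus strand) measured 28.5, 36.5 and 43.2 CPM in vehicle and 49.1, 53.5 and 58.9 CPM in β-NMN cells. All 6 β-NMN libraries were above all 6 vehicle libraries, with a log2 fold change of 0.59 ± 0.10 (SE, edgeR adjusted p = 0.000259). Of the Keap1 exon bases, 10.9% overlap the antisense gene Gm16754, and reads of the pair cannot be told apart if strand was not used in counting. Within each library, the ratio of Nfe2l2 to Keap1 reads per kb was 6.59 to 14.8 (median 10.4) in vehicle and 1.64 to 2.53 (median 1.96) in β-NMN cells, and the groups did not overlap. This ratio does not depend on library scaling.

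Slc7a11 changed most. It encodes xCT, the light chain of the antiporter that brings in cystine, the source of the cysteine in glutathione (chr3:49892526-50443614, minus strand). Its vehicle levels were 311.5, 412 and 832 CPM (lowest, median and highest), from 12199 to 91543 reads. Its β-NMN levels were 8.23, 9.80 and 21.4 CPM, from 347 to 918 reads. The lowest vehicle library was 14.6 times the highest β-NMN library. The log2 fold change was -5.21 ± 0.33 (SE, 95% interval -5.92 to -4.50, edgeR adjusted p = 3.21e-08), the 18th largest fall among the 14985 genes tested. Slc3a2, which encodes the heavy chain that xCT pairs with, fell by 0.54 on the log2 scale (SE 0.15, edgeR adjusted p = 0.00696), from 816 ± 163 to 559 ± 122 CPM (SD). The reads of Slc7a11 per read of Slc3a2 were therefore 0.315 to 0.795 in vehicle cells and 0.0160 to 0.0362 in β-NMN cells.

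The enzymes of glutathione synthesis and recycling fell less than the transporter. Gclc, the catalytic subunit of glutamate-cysteine ligase (chr9:77754535-77794485, plus strand), measured 17.2, 20.1 and 38.9 CPM in vehicle and 8.95, 9.85 and 11.6 CPM in β-NMN cells. Gclm, the modifier subunit of the same ligase (chr3:122245557-122270732, plus strand), measured 32.5, 45.8 and 61.9 CPM in vehicle and 14.0, 18.4 and 25.5 CPM in β-NMN cells. The highest β-NMN library was below the lowest vehicle library for both subunits. Their log2 fold changes were -1.20 ± 0.17 for Gclc and -1.36 ± 0.19 for Gclm (SE, edgeR adjusted p = 4.81e-05 and 3.22e-05). Of the Gclm exon bases, 4.71% overlap the opposite-strand gene Gm17494 and 3.88% the same-strand pseudogene Gm6061. The ratio of the modifier to the catalytic subunit, in reads per kb, was 0.924 to 1.95 in vehicle and 0.873 to 1.32 in β-NMN cells. These ranges overlapped, and the exact two-sided permutation p was 0.342. Gsr, glutathione reductase, which returns oxidised glutathione to its reduced form (chr8:33652523-33698163, plus strand), measured 95.02, 112 and 150.3 CPM in vehicle and 55.7, 60.4 and 78.4 CPM in β-NMN cells. Its log2 fold change of -0.93 ± 0.13 (SE, edgeR adjusted p = 4.08e-05) was the smallest of the 8 falls.

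The 3 genes of the thioredoxin branch did not move together. Txnrd1, the cytosolic thioredoxin reductase (chr10:82833951-82897712, plus strand), measured 427, 492.5 and 593 CPM in vehicle and 151, 166 and 198 CPM in β-NMN cells. Srxn1, sulfiredoxin, which repairs overoxidised peroxiredoxins (chr2:152105516-152111376, plus strand), measured 37.3, 51.4 and 111 CPM in vehicle and 9.68, 13.5 and 17.3 CPM in β-NMN cells. The lowest vehicle library exceeded the highest β-NMN library 2.15 times for Txnrd1 and 2.16 times for Srxn1. Their log2 fold changes were -1.57 ± 0.11 for Txnrd1 and -2.12 ± 0.25 for Srxn1 (SE, edgeR adjusted p = 8.94e-08 and 6.87e-06). Prdx1, a peroxiredoxin that removes hydrogen peroxide and is a substrate of sulfiredoxin (chr4:116685544-116700822, plus strand), measured 169.5, 194 and 246 CPM in vehicle and 287, 316 and 383 CPM in β-NMN cells. All 6 β-NMN values lay above the vehicle values, with a log2 fold change of 0.69 ± 0.11 (SE, edgeR adjusted p = 0.000102).

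Nqo1, the quinone reductase often used as a readout of NRF2 activity (chr8:107388225-107403206, minus strand), measured 7.20, 11.01 and 20.6 CPM in vehicle and 0.918, 1.39 and 1.80 CPM in β-NMN cells. The β-NMN values rest on 36 to 164 reads per library and the vehicle values on 346 to 2271. The groups were separated by a factor of 4.00 between the lowest vehicle and the highest β-NMN library. Nqo1 fell by 3.11 on the log2 scale (SE 0.26, edgeR adjusted p = 3.07e-07), the 139th largest fall of the genes tested.

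Levels of different genes are compared per kb of exon, as CPM per kb. In vehicle cells the order was Nfe2l2 (75.3 ± 10.8, SD, n = 6), Txnrd1 (71.1 ± 11.6), Prdx1 (66.4 ± 10.0), Gsr (43.2 ± 8.88), Slc7a11 (33.9 ± 13.5) and Srxn1 (20.6 ± 9.60), followed by Nqo1, Keap1, Gclm and Gclc between 7.68 and 6.09. The first 3 were within 1 SD of each other, as were the last 4, and Gsr and Slc7a11 also overlapped. In β-NMN cells Prdx1 led at 107 ± 11.7 CPM per kb, followed by Txnrd1 at 24.0 ± 2.43, Nfe2l2 at 22.8 ± 2.00 and Gsr at 22.7 ± 3.06, which did not differ beyond their spread. Slc7a11 at 0.919 ± 0.423 and Nqo1 at 0.879 ± 0.200 were the lowest. Slc7a11 thus moved from the fifth to the ninth place. The exon lengths are unions over annotated transcripts, so a gene whose cells use a short transcript appears lower than it is.

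Levels differed between mice of one group. Among the 8 genes that fell, vehicle replicate 4 had the highest vehicle level for 7, the exception being Gclm, and vehicle replicate 5 the lowest for 4. Vehicle replicate 4 measured 38.9 CPM of Gclc against 17.2 to 22.3 in the other 5 vehicle libraries, and 111 CPM of Srxn1 against 37.3 to 56.1. Without it the log2 fold changes were -0.95 for Gclc, -1.80 for Srxn1, -2.85 for Nqo1 and -4.94 for Slc7a11, and all 10 genes were still called. In the β-NMN group, replicate 5 was the highest for 5 of the 8 genes. Slc7a11 was at 8.23 to 10.4 CPM in β-NMN replicates 1 to 4 and at 19.2 and 21.4 CPM in replicates 5 and 6. The libraries fell into those under and those over 60000000 counts, a split made after seeing the data, and the 10 genes were called in the same directions within each class, where 27.9% and 30.5% of all genes tested were called. The shallower class held vehicle replicates 1 to 3 and β-NMN replicates 3 to 6. The deeper class held vehicle replicates 4 to 6 and β-NMN replicates 1 and 2 only. The Slc7a11 fold change was -4.75 in the shallower and -5.93 in the deeper libraries on the log2 scale. The deeper value thus includes vehicle replicate 4, the highest for Slc7a11, and leaves out β-NMN replicates 5 and 6, the highest of their group.

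Markers of several cell types differed between the groups. The summed CPM of the 6 macrophage markers was 5366 to 8225 in vehicle and 10350 to 11890 in β-NMN cells, with 3 of 6 called higher. Neutrophil markers summed to 475 to 982 CPM in vehicle and 327 to 455 CPM in β-NMN cells (4 lower and 1 higher of 5 tested). Most of this sum was Csf3r, at a mean of 554 CPM in vehicle and 370 CPM in β-NMN cells. Csf3r had a log2 fold change of -0.58, against -4.996 for S100a8, -5.31 for S100a9 and -4.77 for Ly6g. Retnlg rose, by 1.38. The sum therefore hides the larger falls. Fibroblast markers summed to 74.1 to 812 and 17.1 to 64.4 CPM (4 of 4 lower). Erythroid markers summed to 2.83 to 36.1 and 49.5 to 125 CPM (4 of 4 higher), and T cell markers to 3.91 to 16.5 and 1.88 to 4.16 CPM (5 of 5 lower). The T cell sums overlapped, as did those of B cell markers (2 of 4 lower), endothelial markers (2 of 3 tested lower) and mesothelial markers (2 of 3 lower). Eosinophil sums also overlapped (4.77 to 20.2 and 11.6 to 48.8 CPM, 1 of 1 tested higher), and no mast cell marker was called. Of 5 resident peritoneal macrophage markers 2 were higher and 3 lower (summed CPM 31.0 to 39.0 and 37.1 to 109). None of these markers was at 0 in all 12 libraries. Their part in the changes of the 10 genes was not tested. In vehicle replicate 4, the highest library for 7 of the genes, the neutrophil sum was 579 CPM and the fibroblast sum 328 CPM. Both were inside the range of the other vehicle libraries, and its macrophage sum of 5366 CPM was the lowest. As the neutrophil sum mainly follows Csf3r, it does not give the level of S100a8, S100a9 or Ly6g in that library. In a bulk library, fewer cells of a type and less RNA per cell cannot be told apart.

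Other genes of the pathway were taken from 4 lists, whose counts stand beside the 23.7% higher and 27.9% lower over all genes tested. Of 25 other NRF2 targets tested, 9 were higher and 9 lower in β-NMN cells, with a median log2 fold change of -0.21. Osgin1, an oxidative stress-induced growth inhibitor, fell by 3.43 on the log2 scale (SE 0.31, edgeR adjusted p = 6.69e-07), from 14.3 ± 7.71 to 1.34 ± 0.317 CPM (SD, n = 6). Hmox1, heme oxygenase-1, rose by 1.12 (SE 0.22, edgeR adjusted p = 0.000609), from 311 ± 81.3 to 676 ± 244 CPM, and its groups did not overlap (193 to 406 against 486 to 1151 CPM). A heme-regulated target and the cystine and quinone genes thus moved in opposite directions in the same libraries. Of 15 partners and regulators tested, 2 were higher and 6 lower, with a median of -0.24. Those mentioned here were chosen after their values were seen: the small MAF genes Maff and Mafg fell by 1.75 and 1.26 on the log2 scale (SE 0.14 and 0.21, edgeR adjusted p = 2.44e-07 and 0.000192), and Mafk, at 347 ± 28.6 and 339 ± 113 CPM, was not called. Bach1, a repressor that competes for the same element, rose by 0.50 (SE 0.16, edgeR adjusted p = 0.0156), from 265 ± 74.3 to 374 ± 15.5 CPM. The related repressor Bach2 fell by 1.43 (SE 0.24, edgeR adjusted p = 0.000188), from 13.3 ± 5.05 to 4.90 ± 0.873 CPM.

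Calls went both ways among all genes tested, and also among the other glutathione and thioredoxin genes. Of 20 glutathione enzymes and transporters, 6 were higher and 7 lower, with a median of 0.02. Gpx1, the abundant glutathione peroxidase, rose by 1.29 on the log2 scale (SE 0.19, edgeR adjusted p = 6.62e-05), from 183 ± 44.0 to 448 ± 106 CPM. Ggt1, a gamma-glutamyltransferase that breaks down extracellular glutathione, and Gpx8, a peroxidase of the endoplasmic reticulum, both fell by 2.37 (SE 0.29 and 0.46, edgeR adjusted p = 9.49e-06 and 0.000639), but from 1.31 ± 0.332 and 0.774 ± 0.553 CPM only. Of 17 thioredoxin and peroxiredoxin genes, 7 were higher and 7 lower, with a median of -0.21. Msrb2, a mitochondrial methionine sulfoxide reductase, rose by 1.15 (SE 0.21, edgeR adjusted p = 0.000338), from 0.938 ± 0.236 to 2.09 ± 0.418 CPM.

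**Figure D2:**
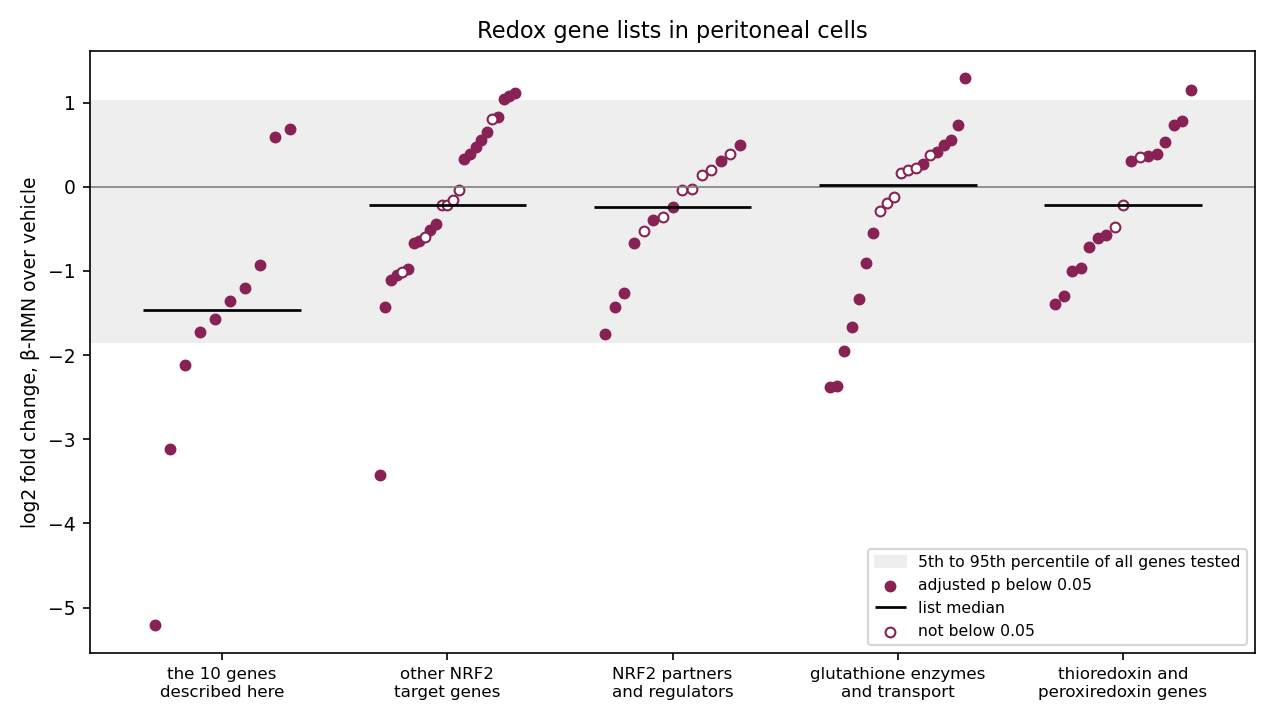
Log2 fold change, β-NMN over vehicle, in peritoneal cells for each tested gene of 5 lists, with filled points for an adjusted p below 0.05, lines at the list medians and a grey band from the 5th to the 95th percentile of all genes tested (-1.84 to 1.02). Of the 10 genes on the left, 3 lie below the band and none above it, and the medians of the other 4 lists lie between -0.24 and 0.02.

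In CLP hearts none of the 10 genes was called, as was the case for all 16245 genes tested with edgeR (0%). The study itself reported many differentially expressed genes in hearts and in lungs at the same limit of the adjusted p. The reason for this difference was not tested. At an unadjusted p below 0.05, edgeR counted 2 of the 10 (Nfe2l2 and Slc7a11) and 1837 of all genes. DESeq2 called 283 genes and limma-voom 3, none of them among the 10. The log2 fold change was below 0 for 8 of the 10, with a median of -0.24 against -0.01 over all genes. Without the heart of vehicle replicate 2, 8 were below 0 with a median of -0.12. By limma-voom with quality weights and all hearts kept, 8 were below 0 with a median of -0.13. In 4 of the 10, Nfe2l2, Slc7a11, Txnrd1 and Srxn1, every β-NMN heart was below every vehicle heart, which held in that direction for 11.5% of genes tested. None of the 10 was higher in every β-NMN heart, which held for 11.6%, so 4 of 10 were without overlap where 23.1% of all genes were. With 3 mice against 3, an exact two-sided permutation test cannot give a p below 0.1.

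Nfe2l2 measured 84.1, 93.6 and 86.4 CPM in vehicle hearts (replicates 1 to 3) and 69.2, 58.4 and 73.5 CPM in β-NMN hearts. The groups did not overlap, with a log2 fold change of -0.39 ± 0.13 (SE, 95% interval -0.69 to -0.10, edgeR adjusted p = 0.435). Keap1 was at 71.4, 63.8 and 72.0 CPM against 74.3, 70.9 and 76.4 CPM, and these values overlapped. The Nfe2l2 to Keap1 ratio in reads per kb was 1.46 to 1.81 in vehicle and 1.02 to 1.19 in β-NMN hearts without overlap, at an exact permutation p of 0.1. Slc7a11 was nearly absent from hearts except in vehicle replicate 2. It measured 0.538, 11.7 and 0.873 CPM in vehicle hearts, from 35, 620 and 30 reads, and 0.0745, 0.129 and 0.434 CPM in β-NMN hearts, from 2, 7 and 28 reads. The fitted log2 fold change was -4.23 ± 1.36 (SE, edgeR adjusted p = 0.435), and it was -1.59 without vehicle replicate 2.

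Vehicle replicate 2 also held the highest heart level of Gclc (33.2 CPM against 13.4 to 17.5 in the other 5 hearts), Gsr (63.2 against 34.5 to 42.3) and Txnrd1 (181 against 92.9 to 119). It held the lowest level of Nqo1, 19.0 CPM against 38.5 to 42.6. Without this heart the log2 fold changes were -0.11 for Gclc, -0.03 for Gsr, -0.19 for Txnrd1 and 0.04 for Nqo1, compared with -0.55, -0.31, -0.44 and 0.33 with it. In the same library the 5 cardiomyocyte markers summed to 29611 CPM (45816 to 52362 in the other 5), the 3 mesothelial markers to 89.9 CPM (5.51 to 11.3) and mitochondrial genes to 12.9% of counts (18.2% to 22.7%). Marker sums also separated the groups as a whole: in CPM, cardiomyocyte markers were at 29611 to 46115 in vehicle and 48052 to 52362 in β-NMN hearts, neutrophil markers at 18.6 to 32.4 and 12.3 to 13.6, and mesothelial markers at 9.67 to 89.9 and 5.51 to 9.48. The list of 5 resident peritoneal macrophage markers also separated them (289 to 1103 and 240 to 288 CPM), but through Prg4 and Cxcl13, while mean Timd4 was at 1.12 and 1.196 CPM, so that in heart the sum does not stand for that cell type. No single marker was called, and the part of these cell types in the levels of the 10 genes was not tested. Srxn1 (37.8 to 41.9 CPM in vehicle and 33.7 to 37.4 CPM in β-NMN hearts), Gclm (67.8 to 77.1 and 56.4 to 82.8) and Prdx1 (140.3 to 158 and 128 to 162) had log2 fold changes of -0.18, -0.07 and -0.06, all with 95% intervals that included 0.

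In CLP lungs none of the 10 genes was called either, as with all 17008 genes tested (0%). At an unadjusted p below 0.05, edgeR counted 2 of the 10 (Slc7a11 and Txnrd1) and 301 of all genes, while DESeq2 called 9 genes and limma-voom 7, none of the 10 among them. All 10 log2 fold changes were below 0, from -4.34 to -0.22, with a median of -0.70 against 0.00 over all genes. Without the lung of vehicle replicate 2, 9 were below 0 and the median was -0.22. By limma-voom with quality weights and all lungs kept, 9 were below 0 and the median was -0.18. The same vehicle mouse, replicate 2, had the highest level of the 6 lungs for all genes but Nqo1. In 4 genes, Nqo1, Srxn1, Txnrd1 and Gsr, every β-NMN lung was below every vehicle lung, which held in that direction for 3.75% of genes tested. None was higher in every β-NMN lung (4.47% of genes tested), and 8.21% of all genes were without overlap in either direction.

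Slc7a11 measured 1.89, 85.7 and 1.45 CPM in vehicle lungs (replicates 1 to 3) and 1.52, 1.16 and 1.65 CPM in β-NMN lungs. Apart from vehicle replicate 2, the groups overlapped. It had a log2 fold change of -4.34 ± 1.61 (SE, edgeR adjusted p = 0.969), and of -0.21 without that lung. Txnrd1 measured 132, 258 and 123 CPM in vehicle and 81.7, 106 and 102 CPM in β-NMN lungs, so that replicates 1 and 3 of the vehicle group also exceeded all β-NMN lungs. Its log2 fold change was -0.82 ± 0.35 with vehicle replicate 2 and -0.40 without it. Srxn1 (32.7, 72.8 and 31.2 CPM in vehicle, 24.7, 26.7 and 29.6 CPM in β-NMN lungs) and Gsr (106, 302 and 122 CPM against 90.8, 97.1 and 90.3 CPM) showed the same order. Their log2 fold changes were -0.75 and -0.93 with that lung and -0.24 and -0.30 without it.

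Nqo1 differed in that vehicle replicate 1, at 10.8 CPM, was the highest lung. The other vehicle lungs were at 7.22 and 5.26 CPM and the β-NMN lungs at 4.20, 4.52 and 4.99 CPM. Nqo1 had a log2 fold change of -0.76 ± 0.35 (SE, edgeR adjusted p = 0.969), and between -0.96 and -0.42 when each lung was left out in turn. Gclc was at 82.8, 218 and 86.4 CPM in vehicle and 59.1, 107 and 81.6 CPM in β-NMN lungs, and the groups overlapped. Its log2 fold change was -0.64, and -0.04 without vehicle replicate 2. Gclm, Nfe2l2, Keap1 and Prdx1 also overlapped, with log2 fold changes of -0.39, -0.22, -0.31 and -0.22. Without that lung they were -0.23, -0.10, -0.14 and 0.15, and Prdx1 was the only one of the 10 to change direction. The Nfe2l2 to Keap1 ratio in reads per kb was 1.78 to 1.95 (median 1.91) in vehicle lungs. In β-NMN lungs it was 1.92 to 2.08 (median 1.98), and the groups overlapped. In the lung of vehicle replicate 2 the macrophage markers summed to 1211 CPM (3942 to 5428 in the other 5 lungs) and the erythroid markers to 11712 CPM (1884 to 3829). Between the groups, macrophage markers were at 1211 to 4249 CPM in vehicle and 4966 to 5428 CPM in β-NMN lungs, and cardiomyocyte markers at 252 to 415 and 74.3 to 245 CPM, without overlap and with no marker called. Their part in the levels of the 10 genes was not tested.

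**Figure D3:**
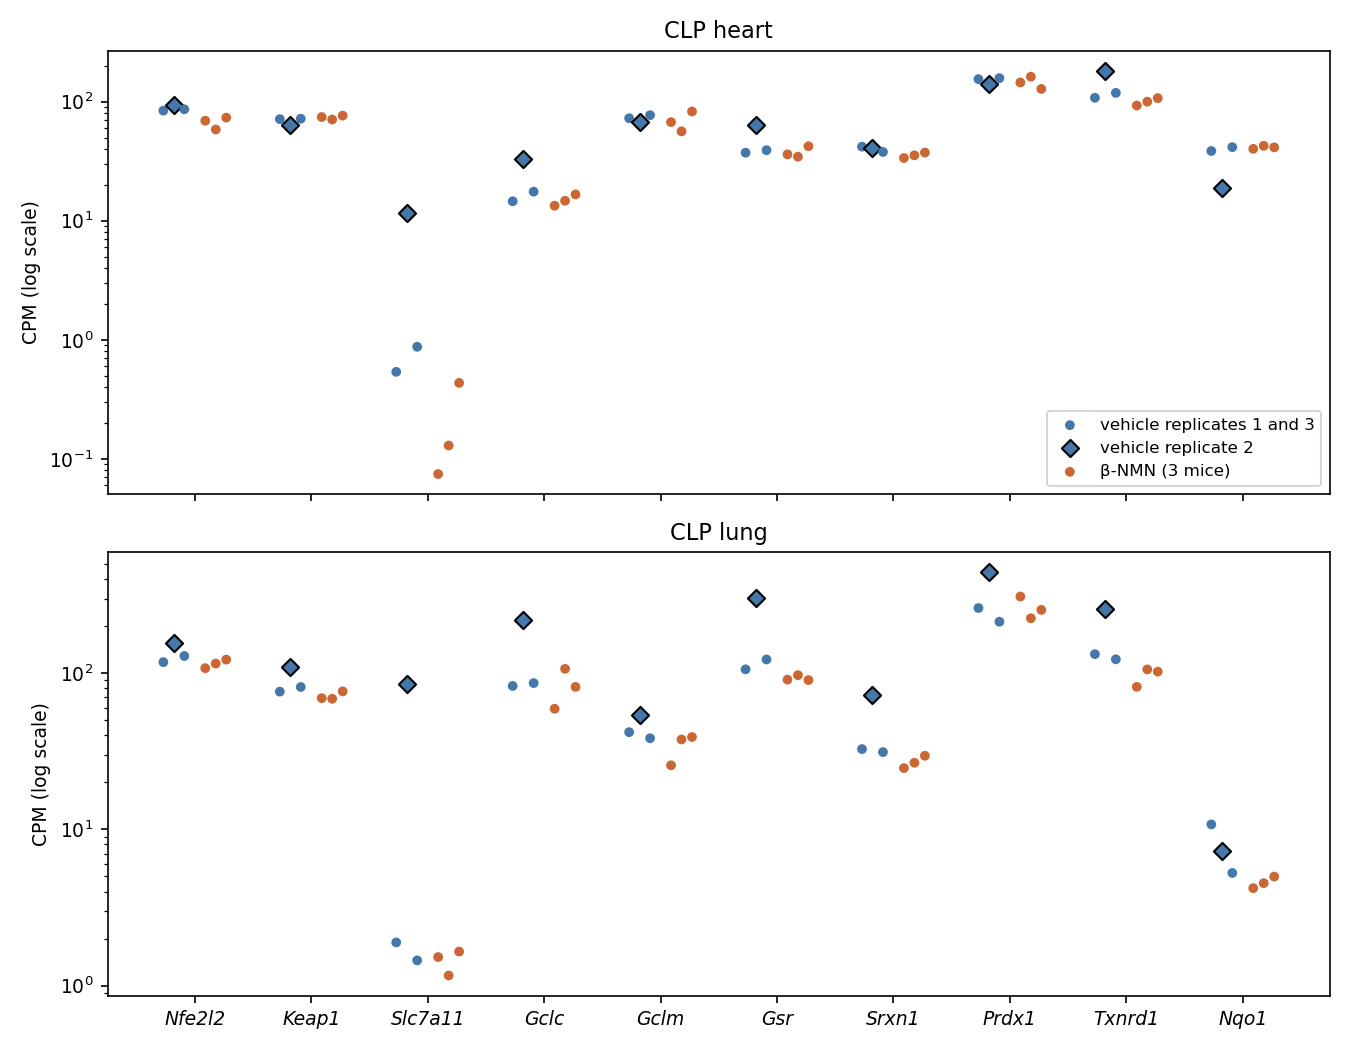
CPM on a log axis for the 10 genes in CLP hearts (top) and lungs (bottom), with 1 point per mouse, vehicle in blue and β-NMN in orange, and diamonds for vehicle replicate 2. The diamond stands above the other points for Slc7a11 in both organs (11.7 CPM in heart and 85.7 CPM in lung), and below them for Nqo1 in heart (19.0 CPM).

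**Figure D4:**
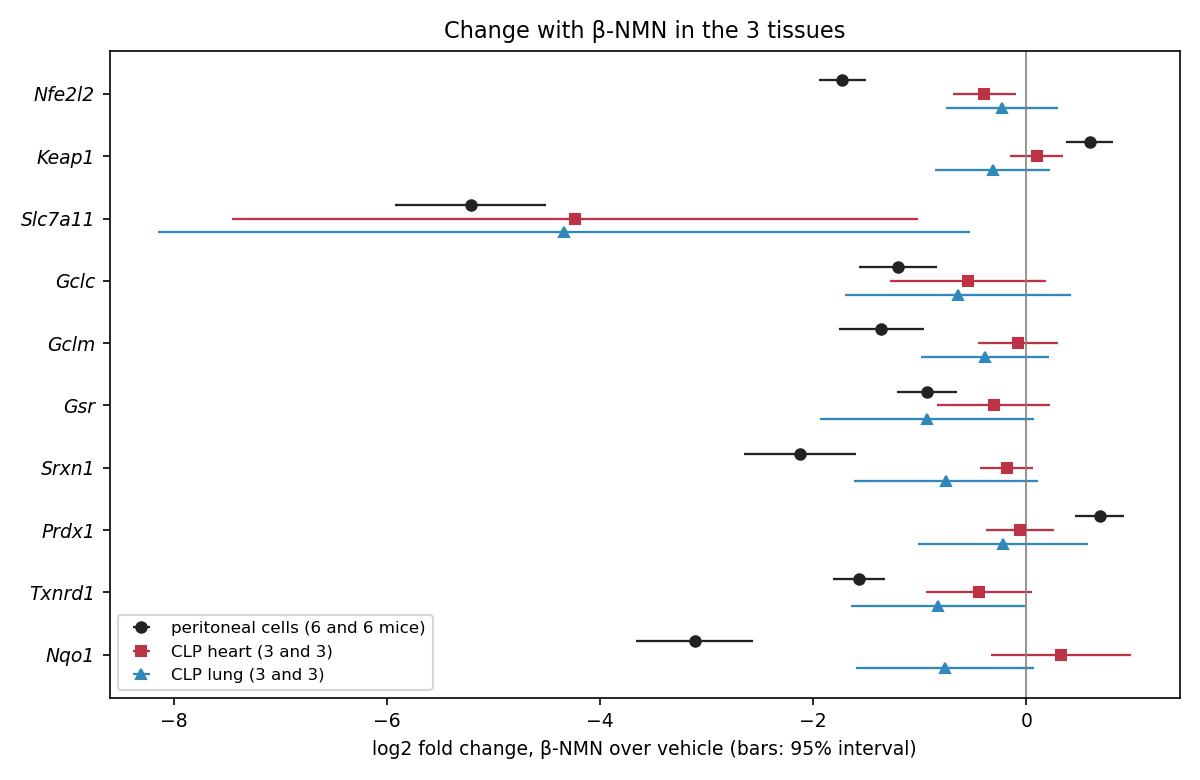
Log2 fold change, β-NMN over vehicle, with its 95% interval from edgeR for each gene in peritoneal cells (circles, 6 and 6 mice), CLP hearts (squares, 3 and 3) and CLP lungs (triangles, 3 and 3). The peritoneal intervals all exclude 0, and the intervals of Slc7a11 in heart (-7.45 to -1.01) and lung (-8.14 to -0.53) are the widest.

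Of the other pathway lists, no gene was called in either organ. The smallest p in hearts were those of Nfe2, a relative of Nfe2l2 (0.788 ± 0.181 CPM in vehicle and 0.303 ± 0.0271 CPM in β-NMN hearts), and Ugdh, which makes UDP-glucuronic acid (35.6 ± 16.7 and 14.0 ± 1.52 CPM), both at an edgeR adjusted p of 0.435. In lungs they were those of Aldh3a1, an aldehyde dehydrogenase (70.2 ± 10.7 and 39.7 ± 4.71 CPM), and Akr1b8, an aldo-keto reductase (36.6 ± 27.9 and 13.2 ± 1.17 CPM), both at an edgeR adjusted p of 0.969. The other NRF2 targets had log2 fold changes below 0 for 15 of 29 genes in hearts and 22 of 30 in lungs, with medians of -0.01 and -0.15.

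Whether the β-NMN effect differed between the organs was tested as an interaction over the 12 CLP libraries. None of the 10 genes was called, nor any of the 18318 genes tested (0%). At an unadjusted p below 0.05, edgeR counted 1 of the 10 and 797 of all genes, and DESeq2 called 14 genes, none of the 10 among them. That gene was Nqo1, whose fold change was lower in lung than in heart by a log2 difference of -1.08 ± 0.45 (SE, edgeR adjusted p = 0.96), and of -1.28 to -0.70 when each library was left out, the last without the lung of vehicle replicate 1. The difference was -0.28 for Gclm, -0.52 for Srxn1, -0.58 for Gsr, -0.39 for Keap1 and 0.19 for Nfe2l2, and each 95% interval included 0. Without the lung of vehicle replicate 2, it was -0.19 for Gclm, -0.093 for Srxn1, -0.031 for Gsr, -0.27 for Keap1 and 0.26 for Nfe2l2, and without both organs of that mouse -0.13, -0.095, -0.30, -0.21 and 0.23. Leaving out its heart alone gave -0.89 for Gsr and 0.13 for Nfe2l2, and no gene of the 10 was called in any of these fits. Gclm was at -0.10 without the lung of β-NMN replicate 1. Peritoneal cells and organs come from separate experiments with different stimuli and numbers of doses, and β-NMN was injected into the cavity that gave the cells. The difference between them was not tested.

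The organs differed in the levels of the genes themselves. Over the vehicle mice, in CPM scaled across the 12 CLP libraries, 4 of the 10 genes were called between lung and heart, 2 in each direction, where 51% of 18318 genes tested were called (27.6% higher and 23.4% lower in lung). This fit did not pair the 2 organs of a mouse. With the mouse as a block, 4 of the 10 were again called, 2 in each direction, and 46.9% of all genes. Nqo1 was at 41.8 ± 15.8 CPM (SD, n = 3) in heart and 6.10 ± 2.35 CPM in lung, a log2 difference of -2.76 ± 0.34 (SE, edgeR adjusted p = 4.66e-05). Gclm was at 91.5 ± 6.50 and 34.8 ± 4.24 CPM, a log2 difference of -1.39 ± 0.22 (edgeR adjusted p = 0.000312). Its partner subunit Gclc went the other way, at 27.4 ± 12.3 CPM in heart and 98.9 ± 52.5 CPM in lung, a log2 difference of 1.85 ± 0.40 (edgeR adjusted p = 0.00251). The modifier to catalytic ratio, in reads per kb, was 1.22 to 2.99 in vehicle hearts and 0.148 to 0.303 in vehicle lungs, with no overlap. Gsr was also higher in lung, by 1.21 ± 0.33 (edgeR adjusted p = 0.0103). Without the lung of vehicle replicate 2 the Gsr difference was 0.66, still called (edgeR adjusted p = 0.0192). When each library was left out in turn, the edgeR adjusted p of Gsr ranged from 0.00481 to 0.0486.

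Nfe2l2 itself did not differ detectably, at 111 ± 4.84 CPM in heart and 105 ± 9.59 CPM in lung (log2 difference -0.08, 95% interval -0.45 to 0.28). Srxn1, Txnrd1 and Keap1 had log2 differences of -0.54, -0.37 and -0.33 that were not called. Without both organs of vehicle replicate 2, they were -1.08, -0.59 and -0.62 and were called, which made 7 of 10 where 60.1% of all 18673 genes tested in that fit were called. Slc7a11 depended on which organ of that mouse was left out, with a log2 difference of 1.98 in all mice, 4.56 without its heart, which was called (edgeR adjusted p = 0.0429), and -2.005 without its lung. Of the other lists, the largest differences called were the rises in lung of Gpx2 (0.0156 ± 0.0270 CPM in heart and 138 ± 185 CPM in lung), Ggt1 (log2 difference 4.49 ± 0.88) and Gsta3 (4.42 ± 0.40), and the falls of Chac1 (-4.28 ± 0.50), Prdx3 (-2.82 ± 0.26) and Msrb2 (-2.68 ± 0.42). These encode a gastrointestinal-type glutathione peroxidase, a gamma-glutamyltransferase, a glutathione transferase, a glutathione-degrading cyclotransferase, the mitochondrial peroxiredoxin and a mitochondrial methionine sulfoxide reductase.

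Per kb of exon, Prdx1 was the highest of the 10 genes in both organs, at 49.6 ± 3.06 CPM per kb (SD, n = 3) in vehicle hearts and 100.3 ± 39.5 in vehicle lungs. In hearts, Nfe2l2 (23.2 ± 1.31), Nqo1 (21.3 ± 7.88), Txnrd1 (19.2 ± 5.61), Gsr (16.9 ± 5.24), Keap1 (14.7 ± 0.970) and Srxn1 (14.3 ± 0.775) followed, with neighbours that did not differ beyond their spread. Gclm (11.5 ± 0.739), Gclc (5.78 ± 2.66) and Slc7a11 (0.313 ± 0.455) came last. In lungs, Gsr (64.1 ± 39.4), Nfe2l2 (35.4 ± 5.27), Gclc (34.2 ± 20.4) and Txnrd1 (24.1 ± 10.7) followed Prdx1 with overlapping spreads, then Keap1 (18.9 ± 3.73), Srxn1 (16.2 ± 8.37), Gclm (7.10 ± 1.28), Nqo1 (4.99 ± 1.80) and Slc7a11 (2.13 ± 3.48). Vehicle replicate 2 carried part of these levels. Without it, in a comparison added after the data were seen, the mean of the other 2 vehicle lungs was 41.4 CPM per kb for Gsr, 22.5 for Gclc and 0.12 for Slc7a11, and that of the other 2 vehicle hearts was 25.8 for Nqo1 and 0.0507 for Slc7a11. Nqo1 held the third place in heart, or the second without that mouse, and the ninth in lung. Slc7a11 was the lowest of the 10 in both organs with and without it.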

How the data were processed

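Per the labels and the study's methods, RNA after poly(A) selection was sequenced on a NovaSeq, mapped to mm10 with STAR (2.7.3a in the submitters' processing notes, another version in the methods) and counted per gene with featureCounts 2.0.0. Reads are called single-end in one place and paired-end in another. Annotation, strand setting and any filter on genes are not given in the sources used here. The deposited tables, 1 for peritoneal cells and 1 for the CLP organs, hold raw counts per gene symbol from the authors, without normalization, and the 2 tables list the same 54658 symbols.

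As in the methods, edgeR was used with TMM, estimateDisp and the quasi-likelihood F-test, here in version 4.0.16 (R 4.3.3, legacy form of the test). Fitting each tissue alone and the low-count filter (filterByExpr) were choices made here, with Benjamini-Hochberg adjustment over all genes tested. Organ contrasts and the interaction used the 12 CLP libraries. SE and 95% intervals came from the fold change and its F, log2 CPM used a prior count of 2, and the permutation tests were exact and two-sided on log2 CPM. Intervals on CLP fits rest on 3 mice per group. The alternatives were DESeq2 1.42.0 and its size factors, omission of the filter, the current edgeR test, limma-voom (limma 3.58.1) with quality weights, a replicate block and leaving out each library. The scripts were tested on simulated data. Lengths and positions are of GENCODE M21 on GRCm38.

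The members and lists were chosen with earlier results of these data known. Besides the 10 genes, the rule named the 3 largest rises and 3 largest falls called among the 4 other lists per comparison, or the 2 smallest p where none was called. Heart and lung of a mouse pair by the mouse tag in their titles, and the deviations of paired organs correlated at 0.0426 to 0.148. The titles give the number 3 to 2 β-NMN hearts, and the heart of the mouse with lung 2 was used as replicate 2. For the CLP organs, the source labels name thioglycollate, whereas titles, tissue labels and methods give CLP.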

Additional observations from a re-analysis of the deposited data

Results flagged for a closer look

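Among 20 groups of 6 peritoneal libraries (10 genes, vehicle and β-NMN), the highest or lowest sample's gap to its nearest neighbour, as a share of the group's range, passed the 95% critical value of Dixon's test in 2. By the construction of that limit, chance gives about 1 in 20 groups, and the 2 are not independent, since both were vehicle replicate 4, at a log2 CPM of 5.28 for Gclc and of 6.80 for Srxn1, above the other 5 vehicle libraries. Without this library both genes still fell with β-NMN, with log2 fold changes of -0.95 and -1.80 by edgeR. The groups of 3 hearts and lungs were not tested for such samples.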

How the results depend on the processing

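In peritoneal cells the 10 genes kept their calls and directions in all alternatives run, from DESeq2 to leaving out each of the 12 libraries. With the replicate number as a block, edgeR called 3188 genes higher and 3822 lower in these cells, 2 and 8 of the 10 genes among them, but the numbers do not pair the mice, since same-numbered deviations correlated at -0.169 to 0.132. The block by number or by mouse gave 0 calls among the 10 genes in hearts, lungs and the interaction. Over all genes, the 7733 peritoneal calls became 4244 in the libraries under 60000000 counts (chosen after seeing the data, and fewer samples). The 0 calls in hearts became 3 without the low-count filter, 283 with DESeq2, 3 with limma-voom and 0 to 5 when each heart was left out, the 5 without vehicle replicate 2. The 0 calls in lungs became 9 with DESeq2 and 7 with limma-voom, and the 0 of the interaction became 2 without the filter and 14 with DESeq2. Between lung and heart, the 4 genes called of the 10 became 4 to 7 when each library was left out, the 7 without the lung of vehicle replicate 2, and 7 without both its organs, also added after seeing the data. The share of all genes called rose as well, from 51% to 55.3% and 60.1%. The fold changes that changed sign were uncalled with all libraries. Leaving out single libraries gave -0.23 to 0.050 for Gclm and -0.15 to 0.030 for Prdx1 in hearts and -0.39 to 0.15 for Prdx1 in lungs, where limma-voom gave 0.043. In the interaction, leaving out libraries gave -0.52 to 0.47 for Gclc, -2.72 to 3.96 for Slc7a11, -0.64 to 0.0051 for Txnrd1 and -0.29 to 0.16 for Prdx1. Without the filter the interaction was 0.015 for Gclc and 0.11 for Slc7a11 (with the median of all genes at 0.13 instead of 0.04), with the mouse as block it was 1.00 for Slc7a11, and without both organs of vehicle replicate 2 it was 0.05 for Gclc, 1.34 for Slc7a11 and 0.23 for Prdx1. Between lung and heart, Slc7a11 ranged from -2.005 to 4.56 when libraries were left out, and Prdx1 from -0.16 (without both organs of that mouse) to 0.46. The causes were not tested. DESeq2 gave Slc7a11 no adjusted p in hearts or lungs.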
